A study of Mus musculus with 6 samples.

Results

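The unconventional myosins outside class I are a set of 9 motor protein genes, Myo5a, Myo5b, Myo5c, Myo6, Myo9a, Myo9b, Myo10, Myo18a and Myo19, out of 11452 gene symbols in the deposited table. They were chosen by symbol, and all 9 are in the table. RNA was sequenced from 3 libraries of 4T1 cells labelled Myosin 1e KO and 3 libraries labelled Myosin 1e WT. 4T1 is a mouse mammary tumour line grown in culture, and the samples of each genotype are called pools. The sources used here do not say how Myo1e was disrupted, how the pools were derived or how far they are independent. The p-values therefore measure the spread between these libraries, which may be technical in part. The table's columns are numbered 1, 2 and 4 in each genotype, so that KO 4 and WT 4 below are the libraries whose columns carry a 4. Columns 1 and 2 match the titles of pools with those numbers, and columns 4 could be matched to their genotype only.

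Unconventional myosins walk along or hold on to actin filaments and do not form the thick filaments of muscle myosin. Class V motors carry vesicles and recycling endosomes towards the cell edge, and myosin VI moves the other way, in endocytosis and autophagy. Class IX motors carry a GTPase-activating domain in their tail, myosin X drives cargo to the tips of filopodia, myosin XVIIIa ties the Golgi to actin, and myosin XIX sits on the outer mitochondrial membrane. Myosin 1e, the targeted protein, is a class I motor that links membranes to actin at sites of endocytosis and adhesion. A comparison of KO with WT asks whether the RNA of the other unconventional myosin genes is at another level when Myo1e is disrupted.

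The values are log2 CPM, the log2 of reads scaled to a common library size, with a small prior, as the authors deposited them. Whole reads could be recovered from them, 17772003 to 19988206 per library, and the 9 genes together held 15765 to 19565 reads per library. The lowest count of any of the 9 genes was 329 reads, for Myo5c in WT 2. Of 8 epithelial markers 7 were in the table, among them Krt8 at 8.88 to 10.4 and Cdh1 at 9.15 to 9.64 log2 CPM, and Krt5 was not. Of 8 leukocyte and 6 endothelial markers none was in the table, and of 7 fibroblast markers 1 was, Pdgfra, at 2.99 to 3.61 log2 CPM. Myo1e itself was at 6.87, 6.81 and 6.81 log2 CPM in KO 1, KO 2 and KO 4, against 7.09, 7.02 and 6.91 in WT 1, WT 2 and WT 4. Its transcript was thus present in every KO library, and these gene totals say nothing of the protein. KO and WT did not overlap for Myo1e, but limma gave its difference of -0.18 an adjusted p of 0.9999 (SE 0.09), and 0.316 with the library number as a block.

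Levels were compared between genes per length, as log2 of CPM per kb of exonic sequence, and 1 pair of neighbours in the order was clearly apart. Myo9b was highest at 4.37 ± 0.24 and Myo5a next at 4.17 ± 0.16 log2 CPM per kb (SD, n = 6 libraries). These 2 genes exchanged places in 1 library, KO 4, and their ranges overlapped. Myo5a and the next gene in order, Myo10 at 3.31 ± 0.36, did not overlap, which holds for no other pair of neighbours. Myo18a followed at 3.22 ± 0.60, Myo19 at 2.63 ± 0.36 and Myo9a at 2.16 ± 0.17, and each of these overlapped its neighbour in the order. The lowest were Myo6 at 1.74 ± 0.27, Myo5b at 1.45 ± 0.21 and Myo5c at 1.39 ± 0.29, again with overlapping ranges. Class V thus held a gene near the top, Myo5a, and the lowest pair, Myo5b and Myo5c. As a share of the summed CPM per kb of the 9 genes, Myo9b held 21.7% to 28.8% and Myo5a 21.2% to 24.4% across the 6 libraries. The share of Myo18a was 7.83%, 8.21% and 20.8% in KO 1, KO 2 and KO 4, against 8.90% to 21.2% in the WT libraries, with WT 4 highest. Myo18a therefore had rank 3 of 9 in KO 4 and rank 2 in WT 4, and rank 4 or 5 in the other libraries.

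**Figure D1:**
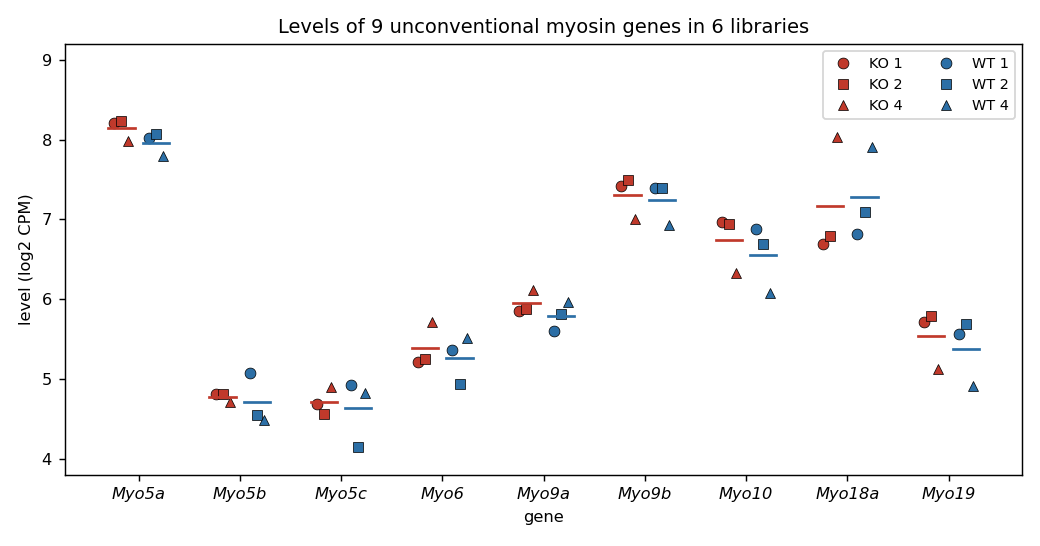
Log2 CPM (vertical axis) of the 9 genes (horizontal axis) in each library, with KO in red left of WT in blue, the marker shape giving the library number and the bar the mean of 3 libraries. The triangles of the libraries numbered 4 stand above the circles and squares for Myo18a and below them for Myo10 and Myo19, in both genotypes; these log2 CPM values are not corrected for length.

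None of the 9 genes passed the threshold for KO against WT, an adjusted p of 0.05 over all 11269 genes tested. Over all those genes 0% were called by limma without a further term, with 23 genes at an unadjusted p under 0.05 and none of the 9 among them. With the library number as a replicate block 0.00887% were called, which is 1 gene and none of the 9. In that blocked fit the adjusted p of the 9 genes ran from 0.271 for Myo5a to 0.852 for Myo5b. The difference was above 0 for 8 of the 9, all but Myo18a, and the median was 0.119, beside -0.007 over all genes tested. KO and WT overlapped over 3 libraries for each of the 9, where 3.63% of all genes did not overlap. The medians within the numbers 1, 2 and 4 were 0.017, 0.168 and 0.191.

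Among the class V motors, Myo5a showed the most even difference. Myo5a, which carries melanosomes in pigment cells and vesicles elsewhere, was at 8.21, 8.24 and 7.99 log2 CPM in KO 1, KO 2 and KO 4, against 8.02, 8.07 and 7.80 in WT 1, WT 2 and WT 4. KO was higher within every number, by 0.20, 0.17 and 0.19, although the groups as a whole overlapped because both libraries numbered 4 were low. The difference of 0.19 had an SE of 0.12 without the block and 0.05 with it, and the blocked 95% interval corresponds to 1.06 to 1.22 times the WT level. Myo5b, a motor of Rab11 recycling endosomes in epithelia, was at 4.81, 4.81 and 4.71 log2 CPM in KO 1, KO 2 and KO 4, against 5.07, 4.55 and 4.49 in WT 1, WT 2 and WT 4. Myo5c, found in glandular and other epithelia, was at 4.69, 4.56 and 4.90 log2 CPM in the same KO libraries, against 4.93, 4.15 and 4.83 in those WT libraries. For both genes KO was lower in number 1 and higher in numbers 2 and 4, and the groups overlapped. The differences of 0.07 (blocked SE 0.10) and 0.08 (blocked SE 0.11) were smaller than the gap between WT libraries, since WT 2 was below WT 1 by -0.52 for Myo5b and -0.78 for Myo5c.

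Myo6, the motor that moves towards the pointed end of actin, followed the same pattern. It was at 5.22, 5.25 and 5.71 log2 CPM in KO 1, KO 2 and KO 4, against 5.37, 4.94 and 5.52 in WT 1, WT 2 and WT 4. WT 2 was below WT 1 by -0.43, whereas KO 2 and KO 1 differed by 0.03. The KO minus WT difference of 0.12 (blocked SE 0.09) had a blocked interval of 0.947 to 1.25 times the WT level.

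Both class IX genes were higher in KO within every number, Myo9a by 0.25, 0.07 and 0.15 and Myo9b by 0.02, 0.10 and 0.08. Myo9a was at 5.85, 5.88 and 6.11 log2 CPM in KO 1, KO 2 and KO 4, against 5.60, 5.81 and 5.96 in WT 1, WT 2 and WT 4. Myo9b, the form first described in immune cells, was at 7.42, 7.49 and 7.01 log2 CPM in these KO libraries, against 7.40, 7.39 and 6.93 in these WT libraries. All groups overlapped over 3 libraries. The mean differences were 0.16 for Myo9a and 0.07 for Myo9b, with blocked SEs of 0.06 and 0.05. For Myo9b the blocked interval reached 1.13 times the WT level at most.

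Myo10 had the largest mean difference together with Myo5a. It was at 6.97, 6.94 and 6.33 log2 CPM in KO 1, KO 2 and KO 4, against 6.88, 6.69 and 6.08 in WT 1, WT 2 and WT 4, so KO was higher by 0.09, 0.25 and 0.25. The difference was 0.19 (blocked SE 0.05), with a blocked interval of 1.05 to 1.25 times WT. Myo19, the mitochondrial motor, was at 5.71, 5.79 and 5.13 log2 CPM in KO 1, KO 2 and KO 4, against 5.56, 5.69 and 4.91 in WT 1, WT 2 and WT 4. It was higher in KO within every number, by 0.16, 0.10 and 0.22, for a mean of 0.16 (blocked SE 0.06) and an interval of 1.02 to 1.23 times WT.

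Myo18a, which binds the Golgi protein GOLPH3 and has little motor activity of its own, was the exception in direction. It was at 6.69, 6.79 and 8.04 log2 CPM in KO 1, KO 2 and KO 4, against 6.82, 7.10 and 7.91 in WT 1, WT 2 and WT 4. KO was lower in numbers 1 and 2, by -0.13 and -0.31, and higher in number 4, by 0.13. The mean difference was -0.10 (blocked SE 0.07), or 0.83 to 1.05 times WT. A test of whether the KO minus WT difference depends on the number gave 0.35 for Myo18a (SE 0.16, adjusted p = 0.9969 in limma). The number 4 has 1 library per genotype, so the spread in this test comes from numbers 1 and 2 alone. Leaving out WT 1 gave 0.49 (limma adjusted p = 0.0073) and leaving out WT 2 gave 0.21 (limma adjusted p = 0.57). In both cases 3 of the 4 arms hold 1 library and the spread rests on KO 1 against KO 2, so these are given as values and not as calls. None of the 9 genes passed this test with all libraries, where 0% of all genes were called, and none of the 9 was among the 3.9% at an unadjusted p under 0.05.

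**Figure D2:**
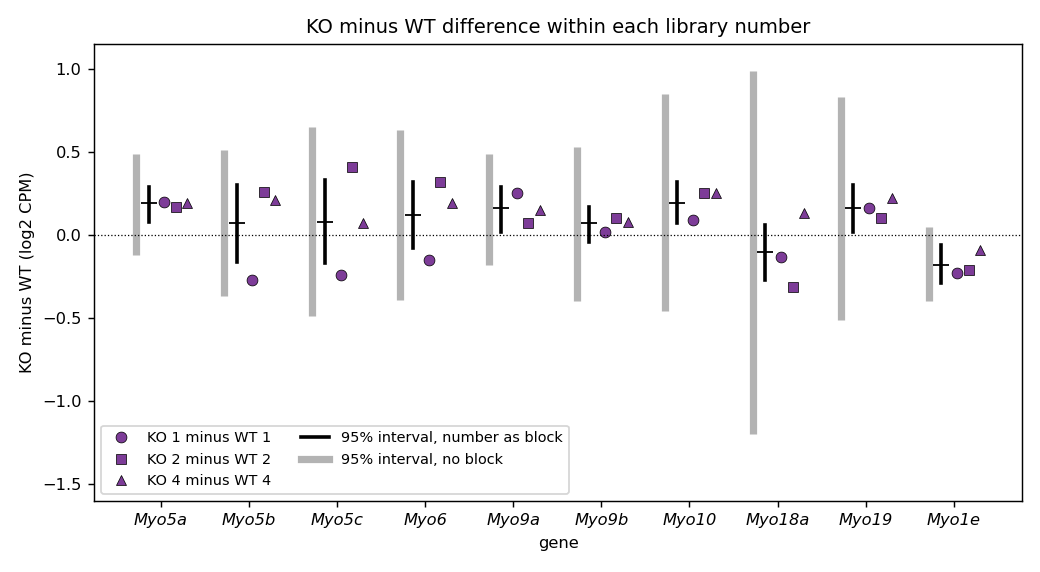
KO minus WT difference in log2 CPM (vertical axis) for the 9 genes and Myo1e, as a purple point per library number, with limma's 95% interval without the block in grey and with it in black. Points of Myo5a, Myo9a, Myo9b, Myo10 and Myo19 lie above 0 in each number, those of Myo1e lie below 0, and every grey interval includes 0.

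KO was above WT in 3 of 3 numbers for 5 of the 9 genes, beside 15.6% of all genes tested, and KO was below WT in 3 of 3 for none, beside 17% of all genes. At an unadjusted p under 0.05 in the blocked limma fit there were 4 of the 9, Myo5a, Myo9a, Myo10 and Myo19, all higher, where 9.91% of all genes reached that level and 4.84% were higher. The summed level of the 9 genes was 896.8, 917.8 and 938.8 CPM in KO 1, KO 2 and KO 4, against 859.3, 854.7 and 842.1 CPM in WT 1, WT 2 and WT 4. All 3 KO sums were above all 3 WT sums, at 917.8 ± 21.0 in KO and 852.0 ± 8.9 CPM in WT (SD, n = 3). Myo5a, Myo9b and Myo18a had the highest mean log2 CPM and weigh most in this sum. The sum is not corrected for length, and no such sum was taken for other genes. The epithelial markers also lay to 1 side, with KO below WT for 7 of 7 tested and a median of -0.17. Over all genes 52.9% were below 0. Of the 7, 3 had an unadjusted p under 0.05 in the blocked limma fit, and none passed the threshold. These markers are short, with a median exonic length of 2 kb beside 4.54 kb over all genes. Genes between 1 and 2 kb had a median difference of -0.056. The part of the markers in the myosin values was not tested.

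Length moved with these differences. The 9 genes have long transcripts, with 7.1 kb of exonic sequence in Myo19 to 16.0 kb in Myo18a, and 76.1% of the 11162 tested genes with a known length were shorter than any of them. The median KO minus WT difference over all genes was -0.071 for genes of up to 1 kb, -0.012 between 4 and 5 kb and 0.071 between 12 and 17 kb. KO was above WT in 3 of 3 numbers for 5.76% of the genes of up to 1 kb and for 44.5% of those between 12 and 17 kb. Among the 2424 other genes as long as the 9, the share was 27.9% and the median difference 0.037. At an unadjusted p under 0.05 with the block, 10.4% of those long genes were higher in KO. After each library's trend with length was taken out, the median of the 9 genes was 0.066, in place of 0.119. With the block in the same fit, Myo10 kept a difference of 0.16 (SE 0.05, limma adjusted p = 0.502), and Myo5a was at 0.11 (SE 0.05, adjusted p = 0.56). Myo9a then differed by 0.10 (SE 0.06) and Myo18a by -0.18 (SE 0.07). At an unadjusted p under 0.05 this fit held 4 of the 9, Myo5a, Myo10, Myo19 and Myo18a, the last lower, beside 8.26% of all genes. What gives rise to the trend with length was not tested.

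**Figure D3:**
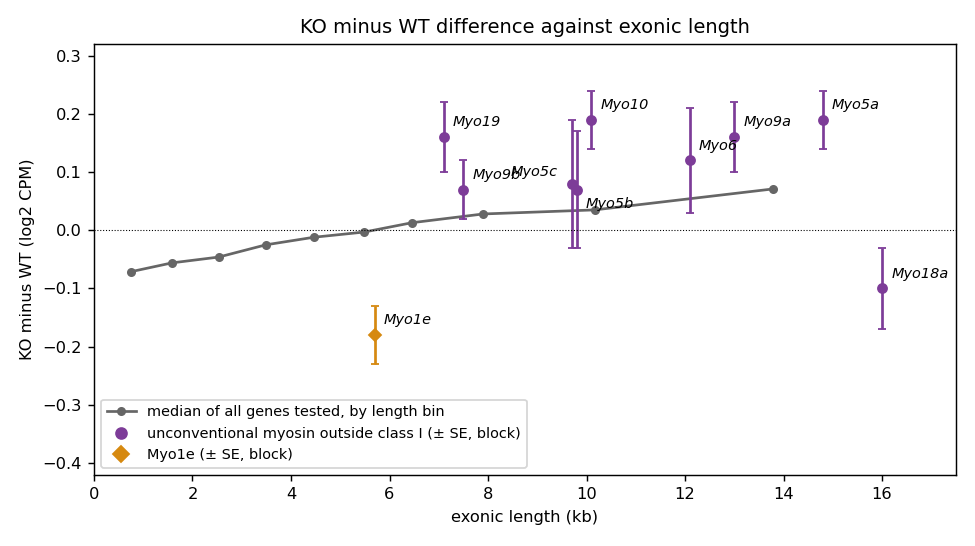
KO minus WT difference in log2 CPM against exonic length in kb, for the 9 genes (purple, ± SE of the blocked fit), Myo1e (orange) and the median of all tested genes in bins of length (grey). The grey line climbs with length and crosses 0 near the length of Myo1e. Myo10, Myo19, Myo9a, Myo6, Myo9b, Myo5b and Myo5c lie above it. The line ends at 13.8 kb, short of Myo5a, which lies higher than its last point, and Myo18a, which lies lower.

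Of the 9 genes 4 lie on chromosome 9, as does Myo1e. On GRCm38, with the gene models of GENCODE M21, Myo9a spans chromosome 9 from 59750896 to 59928866, Myo1e from 70207350 to 70399766, Myo5a from 75071015 to 75223688, Myo5c from 75232020 to 75305451 and Myo6 from 80165031 to 80311729, all on the plus strand. Myo5a and Myo5c are neighbours in tandem, and their KO minus WT differences were 0.19 and 0.08. The 103 other tested genes between the start of Myo9a and the end of Myo6 had a median difference of -0.004, with -0.18 and 0.20 as the 5th and 95th percentiles. Across chromosome 9 the median of 632 genes was 0.021. The medians of the 20 chromosomes, chromosome 9 included, ran from -0.05 to 0.024. Only chromosomes 12 and 16, both at 0.024, were above chromosome 9.

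The split between library numbers was far larger than that between genotypes. With genotype in the fit, libraries numbered 4 differed from numbers 1 and 2 in 7 of the 9 genes by limma's test, 3 higher and 4 lower. Over all 11269 genes 65.6% were called, 31.8% higher and 33.8% lower, so the count of the 9 is near that of the table. Libraries numbered 4 did not overlap the others for 7 of the 9, beside 72.7% of all genes. The labels do not say what the number 4 stands for. Markers of the cell line moved as well, with 2 of the 7 measured epithelial markers higher and 4 lower in the libraries numbered 4. Their part in these results was not tested.

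Myo18a rose most. It stood at 8.04 and 7.91 log2 CPM in KO 4 and WT 4, against 6.69 to 7.10 in the other 4 libraries, a difference of 1.13 (SE 0.10, limma adjusted p = 9.9e-06). That is 2.19 times the level in the libraries numbered 1 and 2, with a 95% interval of 1.88 to 2.55. The rise was 1.31 within KO and 0.96 within WT. The 5th and 95th percentiles of all genes tested were -0.996 and 1.124. Myo6 was higher by 0.42 (SE 0.11, adjusted p = 0.00772 in limma), by 0.48 within KO and 0.37 within WT. Myo9a was higher by 0.25 (SE 0.07, limma adjusted p = 0.0102), and after the correction for length its difference was 0.11 and no longer passed (limma adjusted p = 0.20). Leaving out KO 4 also ended the calls of Myo6, at 0.37 (limma adjusted p = 0.098), and Myo9a, at 0.26 (limma adjusted p = 0.073). Leaving out WT 4 ended that of Myo9a, at 0.25 (limma adjusted p = 0.081). In these fits number 4 is 1 library, assumed to vary like the others.

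The 4 genes that fell in the libraries numbered 4 were Myo19, Myo10, Myo9b and Myo5a. Myo19 stood at 5.13 and 4.91 log2 CPM in KO 4 and WT 4, against 5.56 to 5.79 in the others, and fell by 0.67 (SE 0.07, limma adjusted p = 3.08e-05). Myo10 fell by 0.66 (SE 0.06, limma adjusted p = 2.27e-05), to 0.632 times the level in numbers 1 and 2. These were about equal within the genotypes, at -0.63 and -0.62 within KO and -0.72 and -0.70 within WT. Myo9b fell by 0.46 (SE 0.05, limma adjusted p = 4.3e-05) and Myo5a by 0.24 (SE 0.05, limma adjusted p = 0.00197). Under quantile normalization Myo5a was at -0.07 and did not pass (limma adjusted p = 0.24). Within class IX the paralogs lay on opposite sides of 0, with the call of Myo9a depending on the settings above. In the per-length order Myo18a stood above Myo10 in KO 4 and WT 4 and below it in the other 4 libraries.

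Myo5b and Myo5c did not pass, at -0.21 (SE 0.13, limma adjusted p = 0.19) and 0.28 (SE 0.18, limma adjusted p = 0.181). For both genes the libraries numbered 4 overlapped the others. The 95% interval ran from -0.51 to 0.09 for Myo5b and from -0.11 to 0.68 for Myo5c. Leaving out WT 1 put Myo5c at 0.45 (limma adjusted p = 0.0034), and leaving out WT 2 put Myo5b at -0.31 (limma adjusted p = 0.034). Other libraries left out moved both the other way. With each library left out in turn, Myo5c ranged from 0.12 to 0.45 and Myo5b from -0.32 to -0.08.

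**Figure D4:**
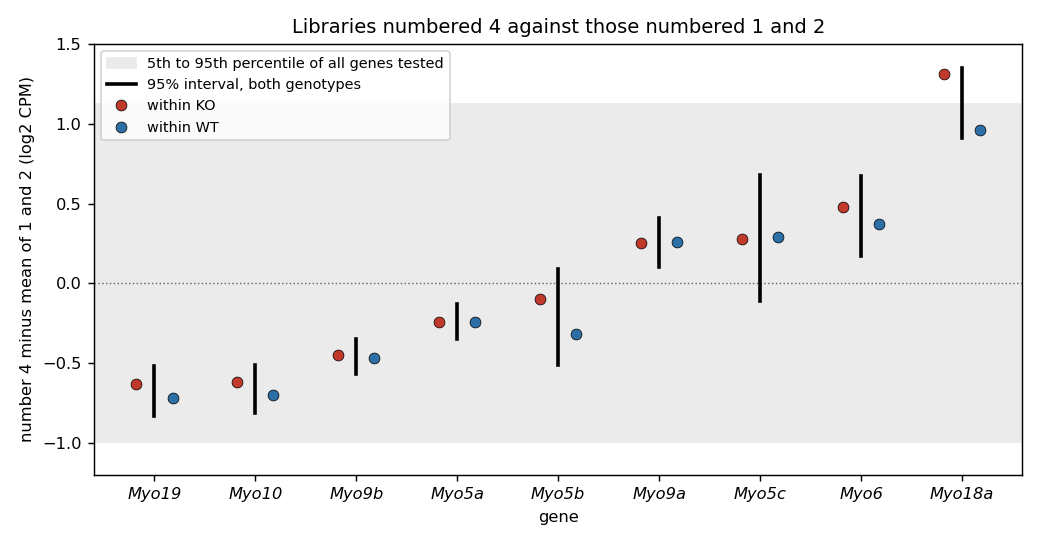
Difference in log2 CPM between library number 4 and the mean of numbers 1 and 2 for each gene, within KO (red) and within WT (blue, to its right), with the 95% interval of limma's fit over both genotypes in black and the 5th to 95th percentile of all 11269 tested genes in grey. The red and blue points lie on the same side of 0 for each gene, at -0.63 and -0.72 for Myo19 on the left and 1.31 and 0.96 for Myo18a on the right, the widest gap between them.

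The sequences just before the start sites of the 4 genes with the largest differences are shown because these genes moved in opposite directions between the library numbers. They are the 250 bases before the RefSeq start on GRCm38.p6, plus strand, at chr11:77801048-77801297 for Myo18a, chr11:84879920-84880169 for Myo19, chr15:25622300-25622549 for Myo10 and chr8:71272464-71272713 for Myo9b. Capitals mark GGGCGG, the GC box, and CCAAT, the CCAAT box, on either strand.
Myo18a: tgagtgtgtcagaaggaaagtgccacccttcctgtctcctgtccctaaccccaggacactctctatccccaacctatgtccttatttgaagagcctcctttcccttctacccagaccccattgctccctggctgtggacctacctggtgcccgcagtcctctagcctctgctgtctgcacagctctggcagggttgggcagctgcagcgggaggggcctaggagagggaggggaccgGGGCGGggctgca
Myo19: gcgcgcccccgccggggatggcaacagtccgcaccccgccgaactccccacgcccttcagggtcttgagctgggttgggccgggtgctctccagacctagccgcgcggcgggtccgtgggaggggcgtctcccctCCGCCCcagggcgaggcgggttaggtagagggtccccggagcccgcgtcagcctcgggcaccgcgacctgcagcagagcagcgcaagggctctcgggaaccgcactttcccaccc
Myo10: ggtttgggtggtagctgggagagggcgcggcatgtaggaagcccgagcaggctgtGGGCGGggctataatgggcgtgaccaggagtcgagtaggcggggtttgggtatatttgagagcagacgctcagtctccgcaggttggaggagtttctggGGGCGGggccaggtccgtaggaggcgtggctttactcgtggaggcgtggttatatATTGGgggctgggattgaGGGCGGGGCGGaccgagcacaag
Myo9b: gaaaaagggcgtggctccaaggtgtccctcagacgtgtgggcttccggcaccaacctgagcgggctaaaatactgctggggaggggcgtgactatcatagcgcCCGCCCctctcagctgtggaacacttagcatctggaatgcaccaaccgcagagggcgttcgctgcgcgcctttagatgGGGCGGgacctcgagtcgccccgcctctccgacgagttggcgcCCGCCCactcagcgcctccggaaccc
RefSeq gives 2 windows for Myo18a, and both lie within the gene of GENCODE M21, which starts further upstream, at 77763246. The printed window, the one with a match, holds 1 GC box, and the other, before position 77777235, holds none. Myo19 holds 1, Myo9b holds 3, and Myo10 holds 4, of which 2 overlap, and 1 CCAAT box. Over 32851 mouse promoter windows of this length, 32.7% hold GGGCGG and 33.8% hold CCAAT. Both strands were also searched for CACGTG (held by 6.02% of all windows), TGANTCA (6.75%), TGACGTCA (1.55%) and TGATGNAA (3.45%), and none was in the 10 windows that RefSeq gives for 8 of the genes. These matches are a description of the letters. For Myo10 RefSeq gives a further start at chromosome 15 position 25753206, whose window holds neither box. Values per gene do not show which start was used.

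The values of Myo9b and Myo19 share ground with genes on the other strand. Exons of Myo9b overlap those of Haus8 over 116 bases, and exons of Myo19 overlap those of Znhit3 over 277 bases and of Pigw over 106 bases. In the libraries numbered 4, Haus8 fell by 1.21 and Znhit3 by 0.86, and Pigw was at -0.29 (SE 0.14, limma adjusted p = 0.104). The library kit marks strand, but the strand setting of the counting is not given, so a part of these reads cannot be assigned with certainty. These 3 genes were named because of their position.

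Genes that work with the 9 motors or in the same processes were taken from lists of cargo adapters, partners and light chains. None of the members of these lists passed the threshold for KO against WT, with or without the block. For the libraries numbered 4, each count below stands beside 31.8% higher and 33.8% lower over all genes tested, and no list was tested against the table. Cargo adapters of class V differed in both directions in the libraries numbered 4, with 7 of 16 tested higher, 4 lower and a median of 0.28, beside 0.003 over all genes. Rab11fip2, an adapter between Rab11 and myosin Vb, was higher by 0.76 (SE 0.09) and Rab11fip5 by 0.62, whereas Rab11a and Rab11b, the GTPases of recycling endosomes, differed by -0.33 and -0.45. Rab27a, which recruits myosin Va to melanosomes, fell by 0.90 (SE 0.13). Rab11fip5 and Rab11a were named after their values were seen.

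Of the myosin VI adapters 6 of 15 tested were higher in the libraries numbered 4 and 3 lower. Calcoco1, an autophagy receptor of the family that includes Tax1bp1, was higher by 1.88 (SE 0.13) and Tom1l2, an endosomal adapter, by 0.80 (SE 0.10). Dab2, the clathrin adapter that brings myosin VI to coated pits, fell by 0.65 (SE 0.10), and Vcl, which encodes the adhesion protein vinculin, by 0.87 (SE 0.05). Of the filopodia genes 6 of 16 were higher and 6 lower, with a median of 0.01. Diaph3, a formin that extends filopodia, fell by 0.82 (SE 0.05) and Cdc42 by 0.41 (SE 0.05). Lpp and Diaph2 were higher by 0.61 and 0.59 (SE 0.09 each).

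Of the Golgi and Pak partners of myosin XVIIIa, 3 of 11 were higher and 5 lower. Golph3, whose protein myosin XVIIIa binds at the Golgi, was higher by 0.21 and its paralog Golph3l by 0.84 (SE 0.08). On the other side, Pak2 was at -0.24 (SE 0.05) and Lurap1l at -0.58 (SE 0.22, limma adjusted p = 0.0468). Under quantile normalization Pak2 was at -0.05 and did not pass (limma adjusted p = 0.38). Lurap1l did not pass without the variance trend (limma adjusted p = 0.11) or with voom (limma adjusted p = 0.051). It was at -0.19 without WT 4, a fit that leaves 1 library in number 4. Golph3 was named after its values were seen. Of the 13 mitochondrial genes listed for myosin XIX, 5 were lower and 1 was higher, Trak1, by 0.71 (SE 0.05). The list goes beyond the receptors of this motor and also holds Kif5b, Trak2, Fis1 and Dnm1l. Rhot2, which encodes the receptor Miro2, fell by 0.62 (SE 0.09) and Mtx1, encoding metaxin, by 0.76 (SE 0.06), beside Rhot1 at 0.15 (limma adjusted p = 0.0617), named for its role.

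Of 9 tested genes for light chains and the myosin chaperone Unc45a, 6 were lower in the libraries numbered 4 (33.8% of all genes were) and none was higher, with a median of -0.32. Myl6, the essential light chain of nonmuscle myosins, fell by 0.71, and Dynll1, a light chain shared by dynein and myosin Va, by 0.50. Both were named here after their values were seen. For KO against WT, 9 of these 9 genes were below 0, with a median of -0.08, and 10 of 11 partners of myosin XVIIIa were above 0, with a median of 0.06, none past the threshold. Over all genes 52.9% were below 0 and 47.1% above. The other lists were mixed, with 7 of 16 class V adapters and 8 of 15 myosin VI adapters above 0. So were 10 of 16 filopodia genes and 8 of 13 genes listed for myosin XIX. The median exonic length was 3.3 kb in the light chain list and 5.9 kb in the myosin XVIIIa list, beside 4.54 kb over all genes. Lurap1l, at -0.38 for KO minus WT (blocked SE 0.19), rests on WT 1, without which it was at -0.04.

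**Figure D5:**
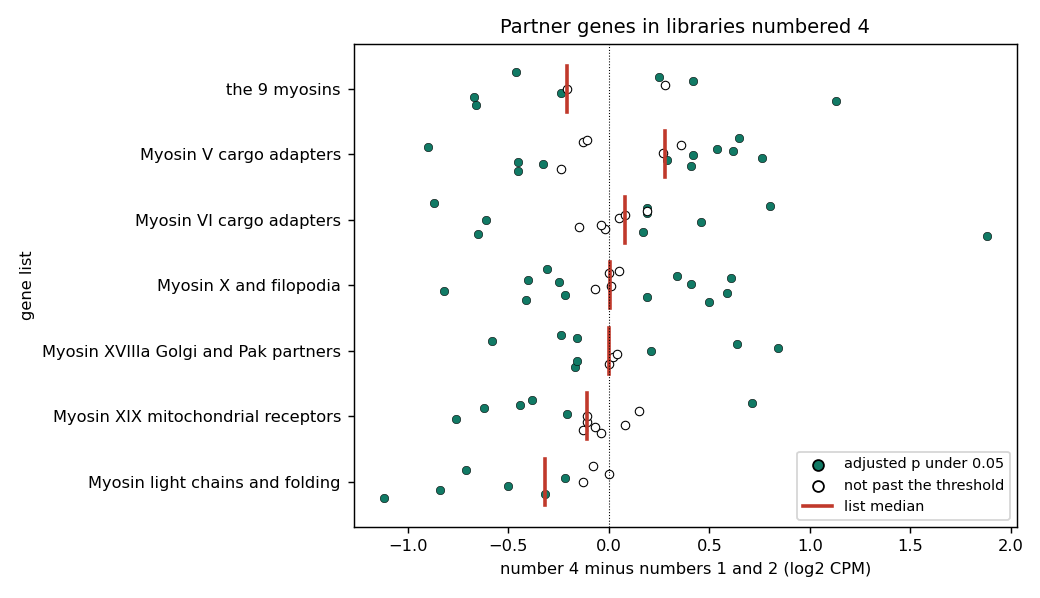
Log2 CPM in libraries numbered 4 minus that in numbers 1 and 2 (horizontal axis) for each tested gene of the 9 myosins and of 6 lists of partners, filled where limma's adjusted p was under 0.05, with the list median in red. The 9 light chain and folding genes lie at or below 0, with a median of -0.32, and the other lists lie on both sides.

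Profiles like those of the 2 extreme members were searched among 11268 other genes by the root mean square distance of centred log2 CPM over the 6 libraries. The closest to Myo18a was Wdr45, an autophagy gene, at 0.060, followed by Phf10 and Cir1 at 0.066 each. Rpap1 was closest to Myo19, at 0.027, followed by Nkrf at 0.031 and Rap2a at 0.036. The search itself fixes that these genes share the split between library numbers, with differences of 1.16, 1.03 and 1.12 for the first 3 and -0.64, -0.67 and -0.66 for the others. The other 7 unconventional myosin genes looked for, Myo3a, Myo3b, Myo7a, Myo7b, Myo15, Myo16 and Myo18b, had no row in the table.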

How the data were processed

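Libraries were made with a column RNA kit and a stranded mRNA preparation, per the labels' protocols. The submitters' processing notes name GRCm38 as the build, with edgeR, featureCounts (Subread 1.6.4), STAR 2.7.3a and Trimmomatic 0.39 as tools. The authors deposited log2 CPM values with a prior. No source used here gives the strand setting, annotation release or filter. Reads were recovered as multiples of 1 step per library, and 100% of values came out whole within 0.01. The floor of 3 reads that a count of 0 allows lies at 0.144 to 0.173 CPM by library, for counting error only.

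Columns 1 and 2 were matched to the pools of that number and columns 4 to their genotype. limma 3.58.1 in R 4.3.3 was fitted to the deposited values with a variance trend, after dropping 183 genes that did not reach a log2 CPM of 0 in 3 or more of the 6 libraries (11269 tested). Tests were two-sided with Benjamini-Hochberg adjustment over all genes tested and a threshold of 0.05. Library number against genotype was fitted with genotype as a term, and the dependence of one on the other with their interaction. Levels per length used exonic length in GENCODE M21, which matches the build. limma was tested on simulated data only for a fit with terms for genotype and for number 4. The genotype fit without a further term, the replicate block and the interaction were not simulated.

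Same-numbered KO and WT libraries deviated together from their genotype means, with correlations across genes of 0.744, 0.784 and 0.921 for numbers 1, 2 and 4, so the numbers were taken to pair the libraries. KO 1 with WT 2 gave 0.687 and KO 2 with WT 1 gave 0.617, nearly as high, so most of this is the split of number 4 from numbers 1 and 2. The pairing comes from the values and not from a label. Alternatives were the replicate block, other filters, pseudocounts, scalings and variance models, voom on recovered reads, and leaving out each library. A correction for length was chosen after seeing the data. The members and lists were chosen with earlier results of these data known. Named genes were the 9 members, Myo1e, up to 2 highest and 2 lowest called genes per list for library number, the extremes per list for KO minus WT, and the 3 closest profiles of 2 members. Not all of these are described, and some items are not reported here.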

Additional observations from a re-analysis of the deposited data

How the results depend on the processing

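The count of the 9 genes past the threshold for KO against WT was 0 under each alternative run, including the replicate block. Over all genes the block gave 1 call, lower in KO, in place of 0, and so did the block with the length correction (also 1). For library number, the members higher past the threshold ranged from 1 to 4 and those lower from 4 to 5 with 1 library left out, and all genes from 2619 to 3681 higher and 2973 to 3814 lower. For the dependence of KO minus WT on number, leaving out 1 library gave 0 to 1 member higher, and 0 to 191 genes higher and 0 to 78 lower, the upper values without WT 2. Without WT 1 these were 70 and 75, and both fits take their spread from KO 1 against KO 2. Leaving out KO 4 or WT 4 gives no such test.

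Directions of small KO minus WT differences turned when 1 library was left out. They ranged from -0.04 to 0.25 for Myo5b, -0.17 to 0.22 for Myo5c, -0.05 to 0.24 for Myo6, -0.09 to 0.22 for Myo9b, -0.04 to 0.40 for Myo10, -0.54 to 0.22 for Myo18a and -0.08 to 0.37 for Myo19. Among partners they ranged from -0.87 to 0.38 for Calcoco1, -0.04 to 0.40 for Dab2, -0.25 to 0.10 for Dynll1 and -0.06 to 0.06 for Unc45a. Leaving out a library leaves the numbers in unequal shares, which moves genes that differ by number by construction. Myo5a ranged from 0.10 to 0.26 and Myo9a from 0.06 to 0.24. In libraries 1 and 2 only, Myo5b was at -0.0026; the cause was not tested. The number itself defines the other comparison, so no replicate block was possible there.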
